A study of Mus musculus with 34 samples.

Results

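Fut10, Parp1, Clic4 and Simc1 were followed across ribosome-bound mRNA libraries of mouse inhibitory interneurons. These 4 genes, of 53465 listed in the batch 3 table and 15150 tested there, were picked by measured values: each was higher in PV libraries after contextual fear conditioning (CFC), in PV libraries labelled Nr4a1 cKO, or in both, than in 3 PV home cage libraries that served as the reference for both comparisons. Differences within batch 3 are therefore a description with no test. The question is whether the home cage libraries lay low for these genes or the other groups lay high, and the PV libraries of other batches and the SST libraries, which the choice did not use, bear on it.

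RNA was taken with RiboTag, in which Cre recombinase switches on an HA-tagged form of the ribosomal protein Rpl22, so that ribosomes of the Cre line's cells can be pulled down with their mRNA. All 34 libraries came from C57/BL6 mice at postnatal day 60 that carry the RiboTag allele and a Cre driven from Pvalb (PV) or Sst (SST). The genotype was PV:Cre/Ribotag in the batch 1 groups that received saline (n = 3) or the GABA receptor blocker pentylenetetrazol (PTZ, n = 4), in a saline group of batch 2 (n = 2), and in home cage (n = 3) or after CFC, which pairs a context with foot shocks (n = 3), in batch 3. It was Sst:Cre/Ribotag in SST groups of batch 2 that received saline (n = 4) or PTZ (n = 3) and in home cage (n = 3) or after CFC (n = 3) in batch 4. The Nr4a1 cKO groups were kept in the home cage and carried PV:Cre/Nr4a1-f/f/Ribotag (n = 3, batch 3) or Sst:Cre/Nr4a1-f/f/Ribotag (n = 3, batch 5), so Nr4a1 is deleted only where the same Cre acts, and the home cage controls lack the floxed allele. The labels name cortex and hippocampus as tissue, whereas the extraction text speaks of cortices. Whether each library stands for its own animal is not said, and p-values then measure only the spread of these samples, which may be technical.

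Fut10 encodes a member of the fucosyltransferase family, enzymes that attach the sugar fucose to glycans or proteins in the secretory pathway. Parp1 encodes the nuclear enzyme that binds DNA breaks and builds poly(ADP-ribose) chains, which draw in the scaffold Xrcc1 and other repair factors. Clic4 encodes a protein of the chloride intracellular channel family that exists in soluble and membrane-bound forms, is linked to the actin cortex and is well known from blood vessel endothelium. Simc1 encodes a protein with SUMO-interacting motifs that joins with Slf2 to guide the SMC5/6 chromatin complex. Nr4a1, the gene deleted in the cKO mice, encodes a nuclear receptor induced by neuronal activity that can bind the NBRE element as a monomer.

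In GENCODE M21 (GRCm38), Fut10 lies on chr8:31187331-31261738 (plus strand), Parp1 on chr1:180568924-180601254 (plus), Clic4 on chr4:135213969-135272814 (minus) and Simc1 on chr13:54503779-54551290 (plus). Simc1 shares 73 exonic bases with 4833439L19Rik on the other strand, and strandedness is not stated in the sources used here, so reads in those bases cannot be assigned. That neighbour was at 104 CPM in PV home cage, 134 CPM after CFC and 124 CPM in PV cKO libraries, a smaller difference than that of Simc1 (log2 0.37 ± 0.13 and 0.25 ± 0.13, SE). RefSeq promoter windows, from 250 bases before to 50 bases after the start site on GRCm38.p6, were matched for 3 of the 4 genes and are printed 5′ to 3′ on the gene's strand because Parp1 and Simc1 moved together in batch 3 and Clic4 did not. Capitals mark the matches found among 5 motifs searched on both strands.
Parp1, chr1:180568641-180568940, plus strand: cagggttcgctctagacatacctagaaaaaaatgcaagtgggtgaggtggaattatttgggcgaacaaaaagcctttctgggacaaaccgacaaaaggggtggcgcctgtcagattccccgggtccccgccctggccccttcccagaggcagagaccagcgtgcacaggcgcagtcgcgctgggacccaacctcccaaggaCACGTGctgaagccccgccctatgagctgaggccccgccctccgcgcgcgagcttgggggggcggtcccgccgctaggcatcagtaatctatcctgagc
Clic4, chr4:135272711-135273010, minus strand: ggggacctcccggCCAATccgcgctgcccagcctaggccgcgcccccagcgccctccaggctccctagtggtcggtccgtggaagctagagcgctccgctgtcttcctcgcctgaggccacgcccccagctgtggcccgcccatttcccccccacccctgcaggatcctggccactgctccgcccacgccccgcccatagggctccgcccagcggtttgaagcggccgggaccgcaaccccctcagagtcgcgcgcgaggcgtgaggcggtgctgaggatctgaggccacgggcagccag
Simc1, chr13:54503555-54503854, plus strand: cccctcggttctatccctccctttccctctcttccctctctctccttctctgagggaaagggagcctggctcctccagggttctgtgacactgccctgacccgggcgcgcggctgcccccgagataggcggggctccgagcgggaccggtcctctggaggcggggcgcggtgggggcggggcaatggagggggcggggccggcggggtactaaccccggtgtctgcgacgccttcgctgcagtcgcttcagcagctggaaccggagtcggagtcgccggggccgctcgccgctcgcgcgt
The Parp1 window holds 1 E-box (CACGTG) at position -49 from the start, and the Clic4 window 1 CCAAT box (CCAAT) at -237, while the Simc1 window holds none of the 5. Of 32851 promoter windows of this length, 7.15% hold this E-box and 37.4% a CCAAT box. Neither the NBRE (AAAGGTCA, in 1.51% of windows), nor the CRE (TGACGTCA, 1.79%), nor the AP-1 element (TGANTCA, 7.81%) was found in the 3 windows. The Parp1 and Simc1 windows thus share no match to these motifs, and a match or its absence says nothing of a factor's binding.

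Library totals ran from 4933110 counts in batch 2 to 27282912 in batch 3, and the home cage libraries of batch 3 were the shallowest of that batch (10096035 to 20353741 counts). Nr4a1 was at 5.07 to 11.7 CPM in PV home cage libraries, 56.1 to 64.3 CPM after CFC and 6.68 to 16.4 CPM in PV libraries labelled Nr4a1 cKO (CPM, counts brought to the same total in each library, with TMM factors computed within a table). Counts cover the whole gene, exons outside a deletion included, so this level does not check the genotype. Pvalb was at 155 to 190 CPM in PV home cage libraries, inside the 87.3 to 478 CPM of SST home cage libraries, whereas Sst was at 125 to 464 CPM in the former and 5512 to 5882 CPM in the latter. In PV saline libraries of batch 1, Pvalb (15.9 to 22.1 CPM) was below Sst (38 to 62.3 CPM), so Pvalb alone does not set PV libraries apart here. PV Nr4a1 cKO replicates 1 and 2 stood apart, with 1053 and 1346 CPM of Pvalb, whereas cKO replicate 3 (156 CPM) was close to the 143 to 179 CPM after CFC. For each of the 4 genes cKO replicate 3 nevertheless lay above every home cage library, as the values below show.

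Within batch 3, Fut10, Parp1 and Simc1 were low in all 3 home cage libraries and high in both other groups, whereas Clic4 was high in the cKO group only. Levels below are CPM after TMM scaling within each table, with libraries in the order of their replicate numbers. Fut10 was at 1.95, 0.826 and 2.18 CPM in home cage, from 40, 12 and 20 counts, at 8.43, 10.0 and 8.71 CPM after CFC and at 8.25, 7.11 and 8.11 CPM in cKO libraries. The 12 counts of home cage replicate 2 gave 0.784 CPM of the library total, with an exact 95% Poisson interval of 0.405 to 1.37 CPM that covers counting error only. The home cage libraries of Fut10 lay below all 6 others, and the CFC libraries lay above the cKO libraries after TMM scaling; by library totals they overlapped, with CFC replicate 1 at 8.28 CPM and cKO replicates 1 and 3 at 8.65 and 8.37 CPM. The difference from home cage was log2 2.46 ± 0.36 (SE) after CFC, or 5.52-fold, and 2.25 ± 0.36 in cKO libraries, or 4.76-fold.

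Parp1 was at 56.5, 46.2 and 43.3 CPM in home cage, 134, 101 and 97.2 CPM after CFC and 127, 81.9 and 76.1 CPM in cKO libraries. All 6 libraries of the latter groups exceeded the home cage libraries, and the CFC and cKO ranges overlapped. The log2 difference from home cage was 1.18 ± 0.21 after CFC (2.27-fold) and 0.96 ± 0.21 in cKO libraries (1.95-fold). Replicate 1 was the highest library in each of the 3 groups, and without the cKO replicate 1 the cKO difference was 0.70.

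Simc1 was at 4.48, 3.17 and 3.49 CPM in home cage, 10.6, 10.4 and 8.26 CPM after CFC and 9.83, 8.85 and 8.48 CPM in cKO libraries. Home cage libraries again lay below the other 6, which overlapped each other. The log2 difference from home cage was 1.38 ± 0.26 after CFC (2.61-fold) and 1.28 ± 0.26 in cKO libraries (2.42-fold).

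Clic4 had another pattern, with 22.3, 17.8 and 25.3 CPM in home cage, 23.1, 25.6 and 28.5 CPM after CFC and 65.8, 56.3 and 70.6 CPM in cKO libraries. The home cage and CFC ranges overlapped, and the cKO libraries lay above both. The log2 difference from home cage was 0.24 ± 0.17 after CFC and 1.56 ± 0.18 in cKO libraries (2.95-fold), and CFC minus cKO was -1.32 ± 0.17. For Fut10, Parp1 and Simc1, CFC minus cKO was 0.21 ± 0.32, 0.22 ± 0.21 and 0.11 ± 0.25. The CFC and cKO differences share the 3 home cage libraries, so their likeness for these 3 genes is no separate evidence. In such pooled RNA, fewer cells of a type and less RNA per cell cannot be told apart.

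**Figure D1:**
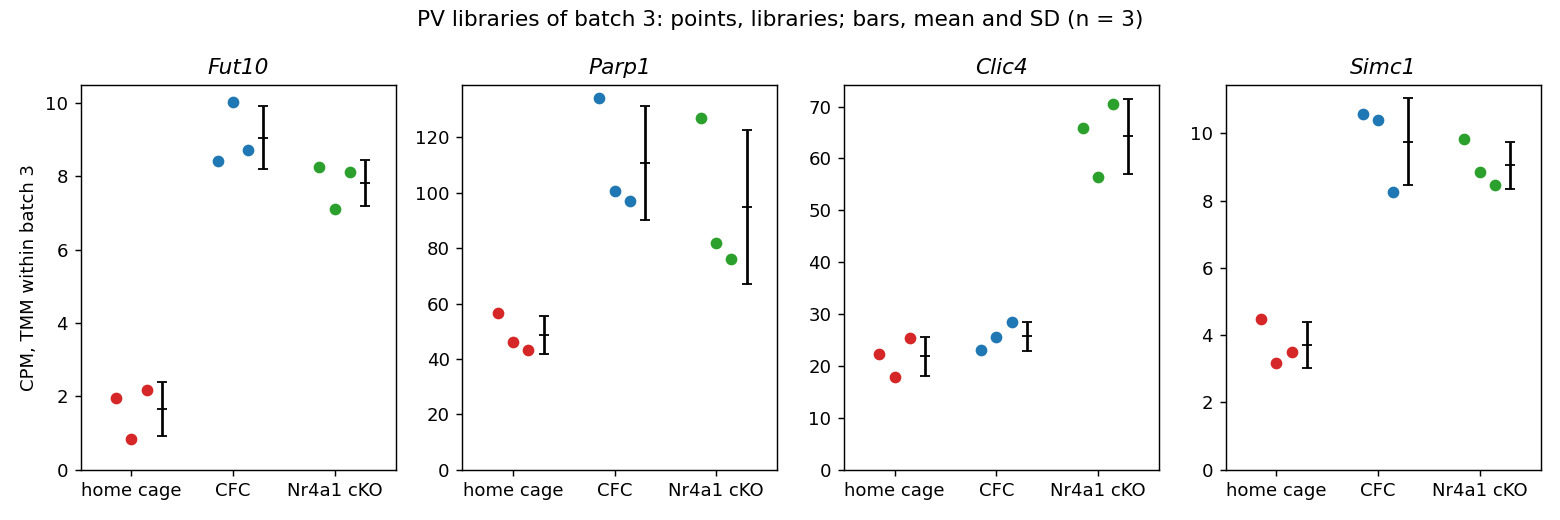
CPM after TMM scaling within batch 3 (vertical axis, from 0) for the 4 genes in PV home cage, CFC and Nr4a1 cKO libraries; points are libraries, and bars the mean with its SD (n = 3 each). Home cage lies lowest for Fut10, Parp1 and Simc1, and for Clic4 the cKO libraries (56.3 to 70.6 CPM) stand above the other 6.

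Over all 15150 genes tested in batch 3, edgeR called 0% for CFC minus home cage at an adjusted p under 0.05, 0.139% for cKO minus home cage and 0.132% for CFC minus cKO; since these contrasts chose the genes, nothing is read from the shares. The count of 0 after CFC stood beside 2834 genes at an unadjusted p under 0.05 and 745 called by DESeq2, and it became 1481 without home cage replicate 1. For the 4 genes themselves, leaving out any 1 library or changing the scaling or the fit moved the CFC difference to between 2.14 and 2.67 for Fut10, 1.02 and 1.31 for Parp1, 0.11 and 0.35 for Clic4 and 1.28 and 1.56 for Simc1. The home cage libraries also stood apart in other features whose part in the results was not tested. The rRNA gene CT010467.1 took 1.39% to 4.6% of their counts, against 1.09% to 1.49% after CFC and 0.771% to 1.2% in cKO libraries. Of 81 ribosomal protein genes tested, 80 were lower after CFC than in home cage (median log2 -0.66), as were 79 in cKO libraries (median -0.54), beside medians over all genes of 0.02 and 0.04. Genes in the lowest quartile of merged exon length had a median CFC difference of -0.34, and those in the third quartile, 4264 to 6666 bases, which holds all 4 genes, 0.16.

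Against the PV libraries of other batches, the home cage libraries were the low ones for Fut10, Parp1 and Simc1. On a scale shared by the 18 PV libraries, the highest home cage level of Fut10 was 2.44 CPM, and the lowest of the 15 other PV libraries 4.72 CPM. For Parp1 these values were 60.2 and 81.9 CPM, and for Simc1 4.78 and 8.78 CPM, so in each case home cage lay below all 15 without overlap. Of 11392 genes common to the 3 tables and tested, 1.84% (210 genes) had home cage below all 15, and 2.78% had it above all 15. Of the 494 genes whose home cage libraries lay below all CFC and cKO libraries, the part of this pattern that the choice of genes had fixed, 42.5% also lay below all 9 PV libraries of batches 1 and 2. The 3 genes kept this place with library totals in place of TMM and with TMM over all 34 libraries. Leaving out libraries on a fixed scale cannot end such a gap. That the 3 genes kept it without the PV saline libraries of batch 2, without batch 1 or without any 1 home cage library was therefore fixed in advance. For the same reason the number of all such genes could not fall, and it went from 210 to 795 when home cage replicate 1 was left out. For Clic4, only 12 of the 15 other libraries exceeded the highest home cage library (28.4 CPM).

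The CFC and cKO groups lay differently against the other batches for each gene. For Fut10, all 6 CFC and cKO libraries (7.55 to 10.6 CPM) fell inside the range of the 9 PV libraries of batches 1 and 2 (4.72 to 14.8 CPM). For Parp1, 4 of 6 did so (range of the 9, 103 to 215 CPM), and the other two lay below it. For Simc1, 0 of 6 did so: at 8.78 to 11.1 CPM they were between home cage and the 16.1 to 23.1 CPM of the other batches, so all 9 batch 3 libraries were low. For Clic4, 3 of 6 fell inside the range of 12.1 to 58.9 CPM, and the 3 cKO libraries, up to 76 CPM, lay above it.

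Set against PV saline of batch 1, home cage was lower by log2 values of -2.75 ± 0.39 (SE) for Fut10, -1.29 ± 0.23 for Parp1, -2.23 ± 0.26 for Simc1 and -0.76 ± 0.32 for Clic4. Against PV saline of batch 2 the values were -2.33 ± 0.43, -1.69 ± 0.25, -2.27 ± 0.28 and -0.14 ± 0.36. The CFC group differed from saline of batch 1 by -0.33 ± 0.35 for Fut10 and -0.15 ± 0.22 for Parp1, each smaller than its SE, and by -0.57 ± 0.31 for Clic4 and -0.89 ± 0.24 for Simc1. The cKO group differed by -0.54 ± 0.36, -0.36 ± 0.22, 0.76 ± 0.31 and -0.99 ± 0.24 for Fut10, Parp1, Clic4 and Simc1. These contrasts cross tables, and batch and condition cannot be told apart in them. The tables differ widely: edgeR called 72.8% of the 11392 genes for home cage minus saline of batch 1 at an adjusted p under 0.05, 4263 of them lower, and 11.2% of all genes had a lower value than Fut10, 16.2% than Simc1 and 29.3% than Parp1. By value alone, then, the home cage deficit of these genes was not extreme across tables. Clic4 against saline of batch 2 rests on libraries that disagree (36.8 and 11.3 CPM): without replicate 1 of that group, home cage minus saline became 0.97.

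**Figure D2:**
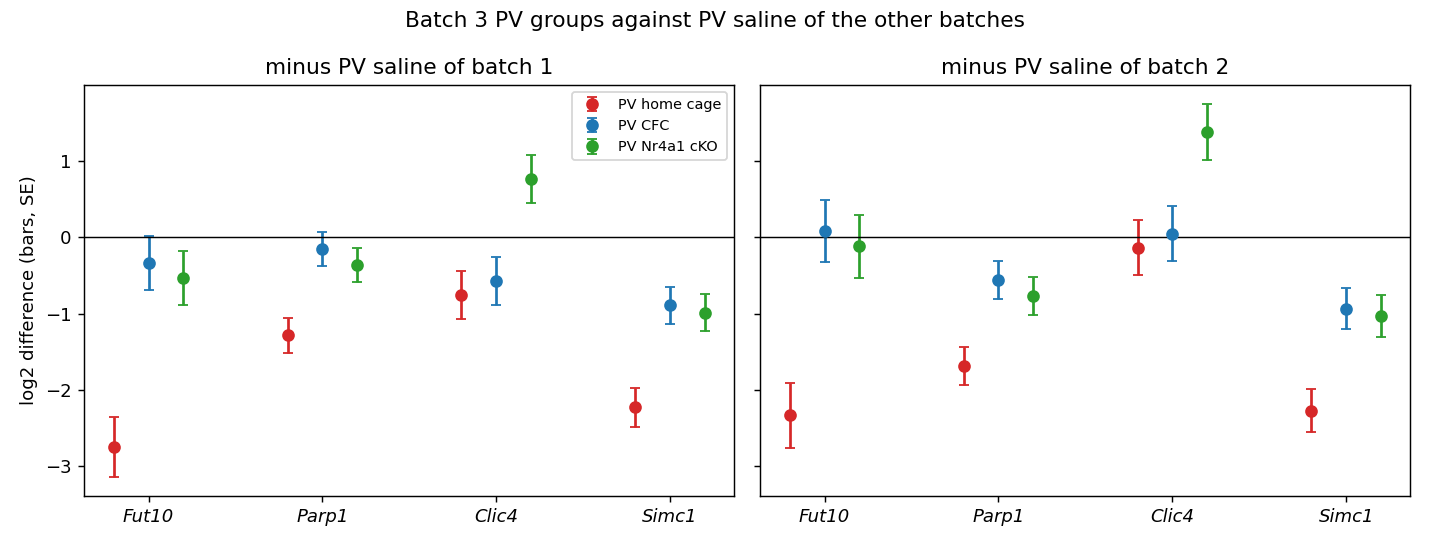
Log2 difference (points) with its SE (bars) of PV home cage, CFC and Nr4a1 cKO libraries of batch 3 from PV saline of batch 1 (left) and batch 2 (right). Home cage is the lowest point for every gene, at -2.75 for Fut10 and -2.23 for Simc1 against batch 1, and Clic4 in cKO libraries is the one value clearly above 0 in both panels.

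Saline libraries of the PV line from batches 1 and 2, which the choice of genes did not use, share 1 label. They give a scale for the change between the tables of these batches only. It cannot be carried over to the table of the home cage libraries, which differed more widely. Home cage minus saline of batch 1, where batch and condition cannot be told apart, called 72.8% of all genes in edgeR. Saline of batch 2 minus batch 1 called 17.8%. Batch 2 minus batch 1 was -0.42 ± 0.41 for Fut10 (95% interval -1.28 to 0.45, adjusted p = 0.519, edgeR), 0.41 ± 0.25 for Parp1 (-0.11 to 0.93, adjusted p = 0.275), -0.62 ± 0.36 for Clic4 (-1.38 to 0.14, adjusted p = 0.256) and 0.04 ± 0.27 for Simc1 (-0.53 to 0.61, adjusted p = 0.934). None of the 4 passed, nor did any at an unadjusted p under 0.05 or with DESeq2 (0 of 4 each), while 17.8% of all genes did in edgeR. For Clic4 the value was -1.73 (adjusted p = 0.00578) without replicate 1 of batch 2.

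With all 34 libraries on 1 scale, PV home cage had the lowest mean of the 11 groups for Fut10 (1.87 ± 0.83 CPM, SD), Parp1 (54.8 ± 5.69 CPM) and Simc1 (4.18 ± 0.63 CPM). It did not overlap the next group in the order. Home cage was the reference in the choice of genes, so its place is a description. On the scale of the 18 PV libraries, 1.84% of genes had home cage below all 15 others. For Fut10 the 5 SST groups followed (means 3.56 to 4.92 CPM) and then the 5 other PV groups (7.62 to 12.5 CPM), each overlapping its neighbour. SST CFC replicate 3, at 1.76 CPM, and SST saline replicate 2, at 2.39 CPM, were nevertheless inside the PV home cage range of Fut10 (0.945 to 2.54 CPM). For Parp1 the order went on with SST CFC (83.9 CPM), SST home cage (87.3 CPM) and SST cKO (99.7 CPM) and ended with PV saline of batch 2 (180 CPM); SST home cage and SST cKO did not overlap. For Simc1 the other PV groups of batch 3 came next (9.85 and 10.5 CPM), and SST saline and SST PTZ were highest (31.3 and 31.7 CPM), above PV PTZ (22.1 CPM) without overlap. Clic4 ran from 23.9 CPM in SST CFC to 70.0 CPM in PV cKO libraries, and every group overlapped its neighbour. Per kilobase of merged exons, Parp1 was the most abundant of the 4 in PV saline of batch 1 (24.8 CPM per kb), followed by Clic4 (6.29), Simc1 (3.41) and Fut10 (2.43).

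**Figure D3:**
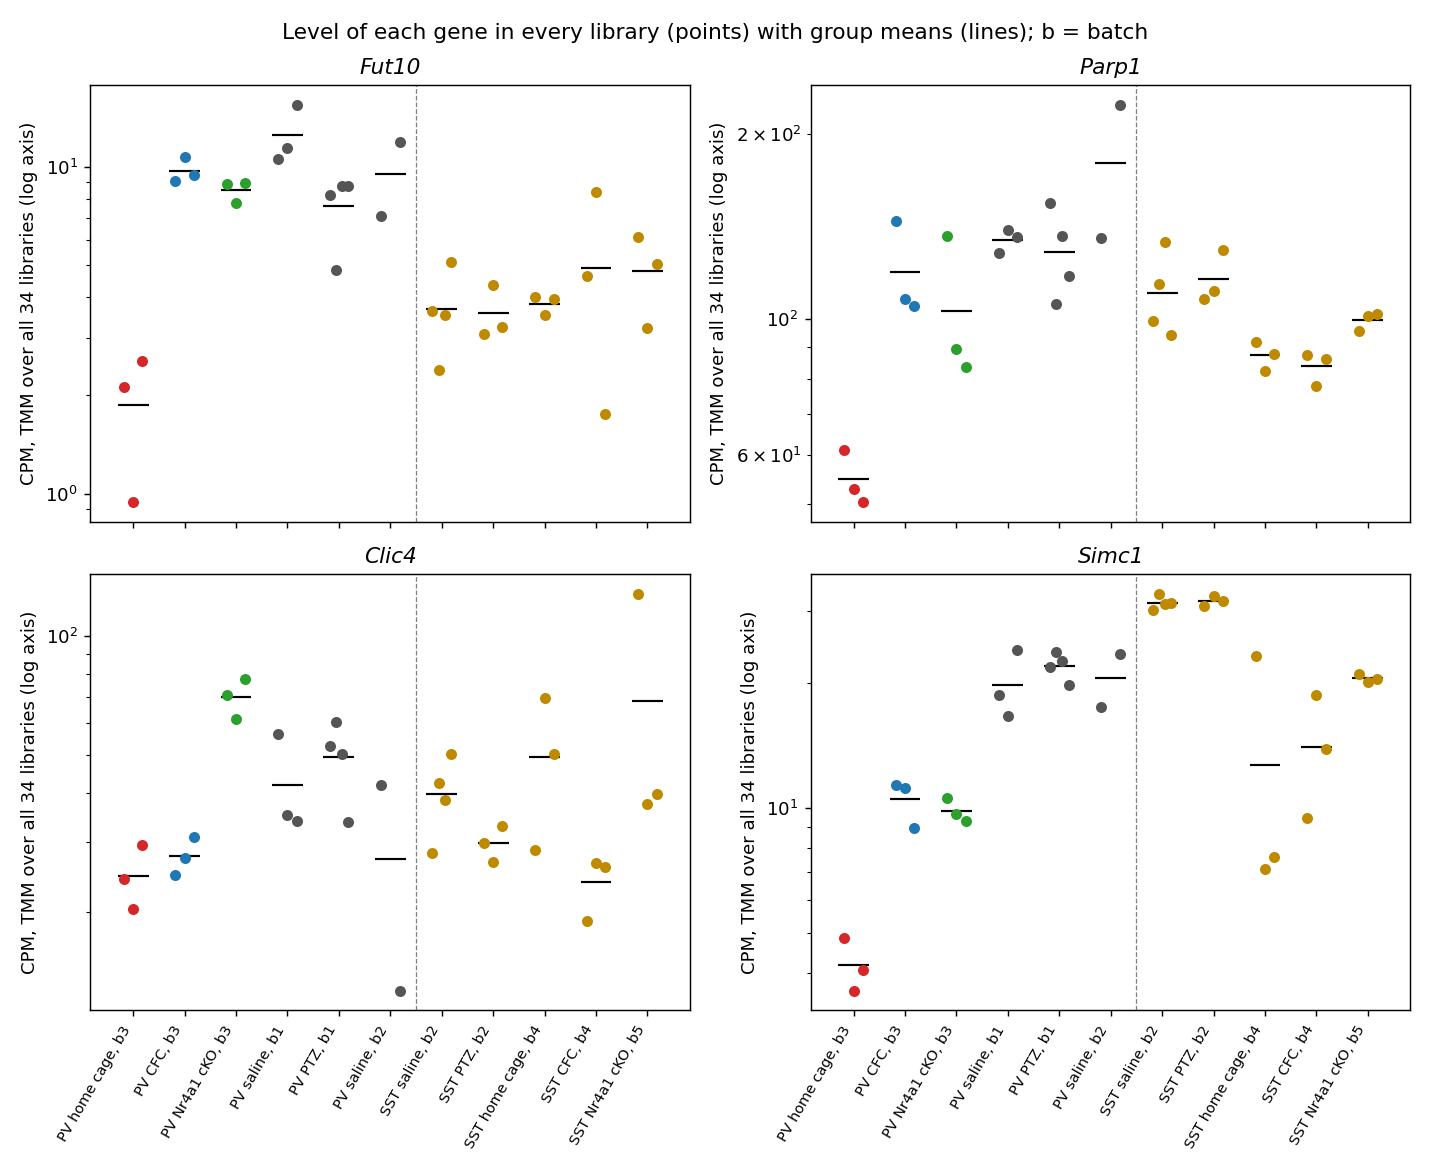
CPM of each gene in every library (points, log axis, TMM over all 34 libraries) by group, with group means (lines); PV groups are left of the dashed line and SST groups right of it. PV home cage (red) is lowest for Fut10, Parp1 and Simc1, and Simc1 is lower in all PV groups of batch 3 than in the PV groups of batches 1 and 2.

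PTZ, the broad excitation stimulus, gave no difference that passed the test for any of the 4 genes. In PV libraries of batch 1, Fut10 was at 10.95, 11.01 and 14.6 CPM after saline and 7.47, 4.47, 8.49 and 8.48 CPM after PTZ. Every PTZ library lay below every saline library, but the log2 difference of -0.76 ± 0.28 (95% interval -1.38 to -0.13) did not pass (adjusted p = 0.324, edgeR). In the same libraries 10 of 11 PV interneuron markers were lower after PTZ (median log2 -0.85), while 10 of 10 microglia markers (1.69), 13 of 13 vascular markers tested (1.14) and 11 of 11 oligodendrocyte markers (0.67) were higher. Their part in the Fut10 values was not tested. Parp1 differed by -0.11 (-0.52 to 0.29, adjusted p = 0.777), Clic4 by 0.17 (-0.41 to 0.75, adjusted p = 0.771) and Simc1 by 0.11 (-0.34 to 0.55, adjusted p = 0.815), and their groups overlapped. Over all genes 0.0294% passed. Of the 4 members 0 passed with edgeR or DESeq2. In edgeR 1 (Fut10) had an unadjusted p under 0.05, as had 1875 of the 13598 genes tested.

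In SST libraries of batch 2, Simc1 was tightly held at 27.6, 30.8, 29.5 and 28.8 CPM after saline and 28.7, 30.7 and 29.5 CPM after PTZ. Its difference was 0.02 ± 0.14 (95% interval -0.29 to 0.34, adjusted p = 0.994, edgeR). Fut10 differed by -0.04 (-0.74 to 0.67, adjusted p = 0.995), Parp1 by 0.08 (-0.31 to 0.47, adjusted p = 0.99) and Clic4 by -0.41 (-1.06 to 0.25, adjusted p = 0.989). Here 0.144% of all genes passed, and 0 of the 4 members passed with edgeR, with DESeq2 or at an unadjusted p under 0.05. The SST minus PV difference of the PTZ responses was 0.68 for Fut10 (-0.23 to 1.59, adjusted p = 0.82), 0.16 for Parp1 (-0.38 to 0.70, adjusted p = 0.923), -0.61 for Clic4 (-1.54 to 0.31, adjusted p = 0.83) and -0.12 for Simc1 (-0.61 to 0.37, adjusted p = 0.937). Over all genes 0% passed this test of responses in edgeR, with 602 at an unadjusted p under 0.05 and 1 called by DESeq2; of the 4 members 0 had an unadjusted p under 0.05 and DESeq2 called 0.

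Between the SST and PV Cre lines after saline, 3 of the 4 genes differed within batch 2, where 53.1% of all genes passed. Fut10 was lower in SST libraries (3.33, 2.24, 3.33 and 4.74 CPM) than in PV libraries (6.2 and 10.7 CPM), by -1.29 ± 0.37 (SE; 95% interval -2.09 to -0.49, adjusted p = 0.0109, edgeR). Parp1 was lower as well (91.1, 107, 126 and 87 against 119 and 200 CPM), by -0.63 ± 0.20 (-1.07 to -0.19, adjusted p = 0.0195), though its groups overlapped. Simc1 was higher in all 4 SST libraries than in the PV libraries (15.4 and 21.2 CPM), by 0.68 ± 0.18 (0.29 to 1.07, adjusted p = 0.00696).

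Clic4 was at 25.9, 39.7, 36.3 and 46.3 CPM in SST saline and 36.8 and 11.3 CPM in PV saline libraries, a difference of 0.60 ± 0.36 (-0.18 to 1.39, adjusted p = 0.179, edgeR). The PV side rests on 2 shallow libraries, and the calls depend on them. Without PV replicate 2, Fut10 gave -0.85 (adjusted p = 0.0897) and Parp1 -0.20 (adjusted p = 0.371); without PV replicate 1, Clic4 gave 1.70 (adjusted p = 0.000578). Parp1 also missed the threshold without SST saline replicate 4 (-0.56, adjusted p = 0.0516).

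After CFC, none of the 4 genes differed in SST libraries by a passing test. Fut10 was at 4.08, 3.68 and 4.13 CPM in SST home cage and 4.75, 8.56 and 1.83 CPM after CFC, a wide spread around a difference of 0.34 ± 0.56 (95% interval -0.93 to 1.61, adjusted p = 0.997, edgeR). Without CFC replicate 2 it was -0.27. Parp1 was at 94, 86.2 and 91.5 against 89.4, 79.7 and 89.5 CPM, a difference of -0.07 ± 0.10 (-0.30 to 0.16, adjusted p = 0.997). Home cage and CFC overlapped for both genes.

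Simc1 differed by 0.14 ± 0.47 after CFC in SST libraries (-0.93 to 1.22, adjusted p = 0.997, edgeR), with home cage libraries at 23.8, 7.48 and 7.96 CPM and CFC libraries at 9.68, 19.3 and 14.4 CPM. Home cage replicate 1 stood far above the other SST home cage libraries, and the difference was 0.90 without it and -0.13 without home cage replicate 2. Clic4 was higher in every SST home cage library (29.3, 73 and 52.2 CPM) than after CFC (19.4, 27.3 and 26.9 CPM), by a difference of -1.07 ± 0.31 (-1.77 to -0.37) that did not pass (adjusted p = 0.648). Over all genes 0.0411% passed, and 0 of the 4 passed with edgeR or DESeq2. In edgeR 1 (Clic4) had an unadjusted p under 0.05, as had 814 of the 14614 genes tested. The difference between the PV and SST responses to CFC was not tested.

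The SST Nr4a1 cKO libraries of batch 5 were compared with SST home cage libraries of batch 4, so batch and genotype cannot be told apart, and 8.13% of all genes passed. Parp1 was at 109, 112 and 113 CPM in SST cKO libraries, above all home cage libraries, yet the difference of 0.25 ± 0.09 (95% interval 0.06 to 0.44) did not pass (adjusted p = 0.104, edgeR); with library totals it was 0.29 and passed (adjusted p = 0.0386). Simc1 was at 24, 22.4 and 22.8 CPM, a difference of 0.77 ± 0.42 (-0.17 to 1.70, adjusted p = 0.34). Without SST home cage replicate 1 it was 1.56 (adjusted p = 0.0205). Fut10 (6.98, 3.57 and 5.61 CPM) differed by 0.39 ± 0.51 (-0.74 to 1.52, adjusted p = 0.755). Clic4 was at 146, 41.4 and 44.1 CPM, a difference of 0.52 ± 0.50 (-0.64 to 1.67, adjusted p = 0.649) that became -0.29 without cKO replicate 1. Of the 4 members 0 passed with edgeR or DESeq2. In edgeR 1 (Parp1) had an unadjusted p under 0.05, as had 3351 of the 15417 genes tested.

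**Figure D4:**
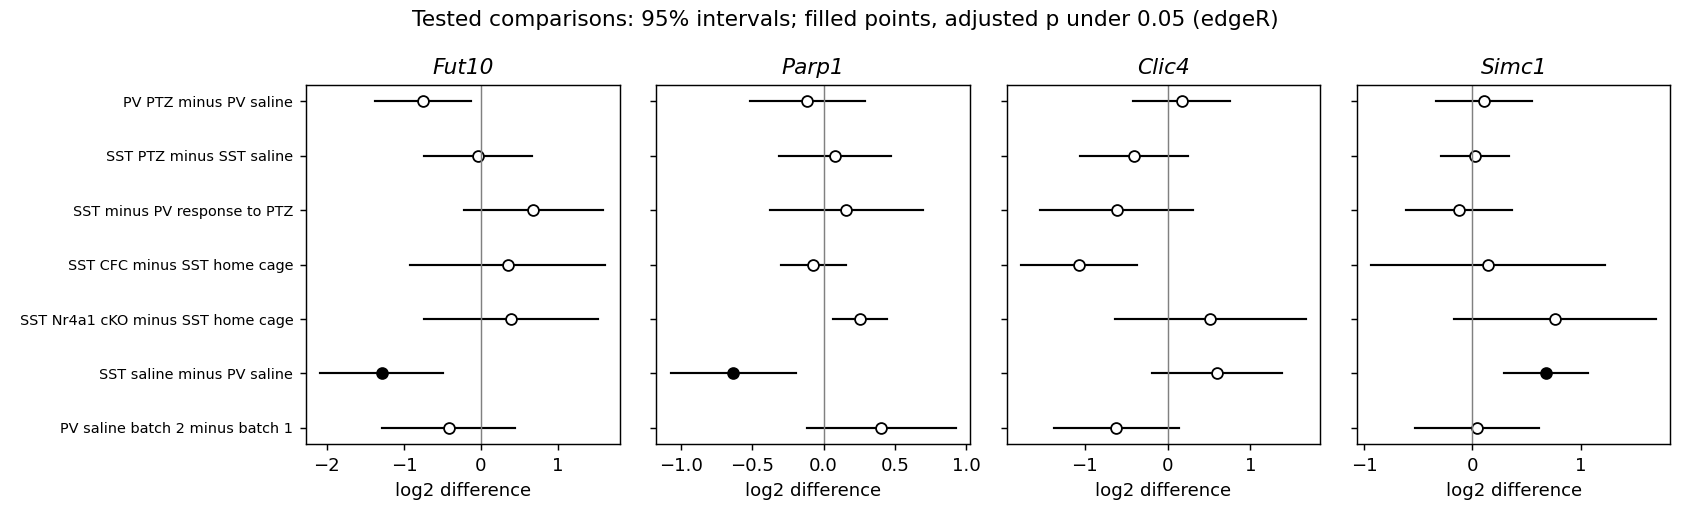
Log2 differences (points) with 95% intervals (lines) in the 7 tested comparisons, 1 panel per gene; filled points passed an adjusted p under 0.05 in edgeR. The 3 filled points are SST minus PV saline for Fut10, Parp1 and Simc1.

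Clic4 is known from endothelium, and its SST libraries of batches 4 and 5 with the highest levels were also those with the most vascular and mural marker RNA (14 listed, all 14 in the tables of batches 3 to 5, summed as CPM). SST home cage libraries had summed marker levels of 145.9, 695.9 and 422.4 CPM beside Clic4 levels of 29.3, 73 and 52.2 CPM. SST cKO libraries had 1399, 57.89 and 57.22 CPM beside 146, 41.4 and 44.1 CPM, and SST CFC libraries 73.84, 83.52 and 59.94 CPM beside 19.4, 27.3 and 26.9 CPM. In SST home cage the order of the libraries was the same for both, and the highest library of the SST cKO group was the same. The levels did not run in parallel throughout, since SST cKO replicates 2 and 3 held more Clic4 than the CFC libraries and home cage replicate 1 at lower vascular sums. In batch 2, whose table holds 9 of the 14 markers, the sums were 58 to 75.6 CPM after PTZ and 25 to 52.4 CPM after saline, while Clic4 was at 25.3 to 30.8 CPM after PTZ and 25.9 to 46.3 CPM after saline. The part of these cells in the SST values of Clic4 was not tested.

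In PV libraries the summed vascular level did not separate the groups as Clic4 did. It was 156.4, 163.3 and 157.8 CPM in home cage, 57.99, 123.7 and 196.7 CPM after CFC and 158.5, 49 and 331.8 CPM in cKO libraries. PV cKO replicate 2 held 56.3 CPM of Clic4 with a vascular sum of 49 CPM, the lowest of the 9 libraries, and cKO replicate 1 held 65.8 CPM at a sum near that of home cage. Taken gene by gene in the fit, however, 10 of the 14 markers were higher in cKO than in home cage libraries (median log2 0.82), and 10 of 14 were lower after CFC than in cKO libraries (median -1.23), the directions of Clic4. Their part in the PV values of Clic4 was not tested. No marker of the list was at 0 counts in any batch 3 library. Oligodendrocyte markers (11 of 11 in the table) went in the directions of Clic4 but overlapped between CFC and cKO libraries. They summed to 427.2 to 1023 CPM in cKO libraries, 226 to 370.2 CPM in home cage and 256.5 to 598.7 CPM after CFC. In the fit, 10 of 11 were higher in cKO than in home cage (median log2 1.06). CFC replicate 3, at 598.7 CPM, exceeded cKO replicates 1 and 2 (561.4 and 427.2 CPM), with Clic4 at 28.5 against 65.8 and 56.3 CPM. Astrocyte markers summed to 168.9 to 237.6 CPM in cKO libraries and 121 to 156.8 CPM in home cage (10 of 10 higher, median 0.45), but reached 148 to 258.4 CPM after CFC. Microglia markers summed to 50.45 to 69.7 CPM in cKO libraries, 40.72 to 44.95 CPM in home cage and 40.23 to 50.22 CPM after CFC. Excitatory neuron markers summed to 433.3 to 467.2 CPM in cKO libraries, 350.2 to 381.6 CPM in home cage and 391.1 to 508.7 CPM after CFC. Home cage thus had the lowest sum of these markers, as of Fut10, Parp1 and Simc1, although 6 of the 10 were lower after CFC in the fit (median log2 -0.31). This place was not particular to them. SST interneuron markers summed to 3489 to 4867 CPM in home cage, 5114 to 5548 CPM after CFC and 5158 to 5752 CPM in cKO libraries. PV interneuron markers summed to 5796 to 7223, 7473 to 8187 and 6598 to 9047 CPM in the same order. Both lists hold Gad1, Gad2, Slc32a1 and Lhx6, so these sums are not separate measures of the SST and PV types. Sst itself had its highest mean in home cage (268 ± 175 CPM, SD), against 168 ± 52 CPM after CFC and 215 ± 149 CPM in cKO libraries, with overlapping ranges. Gene by gene, 4 of 9 SST and 6 of 11 PV markers were higher after CFC, and 7 and 8 in cKO libraries. The part of any of these cell types in the 4 differences was not tested.

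**Figure D5:**
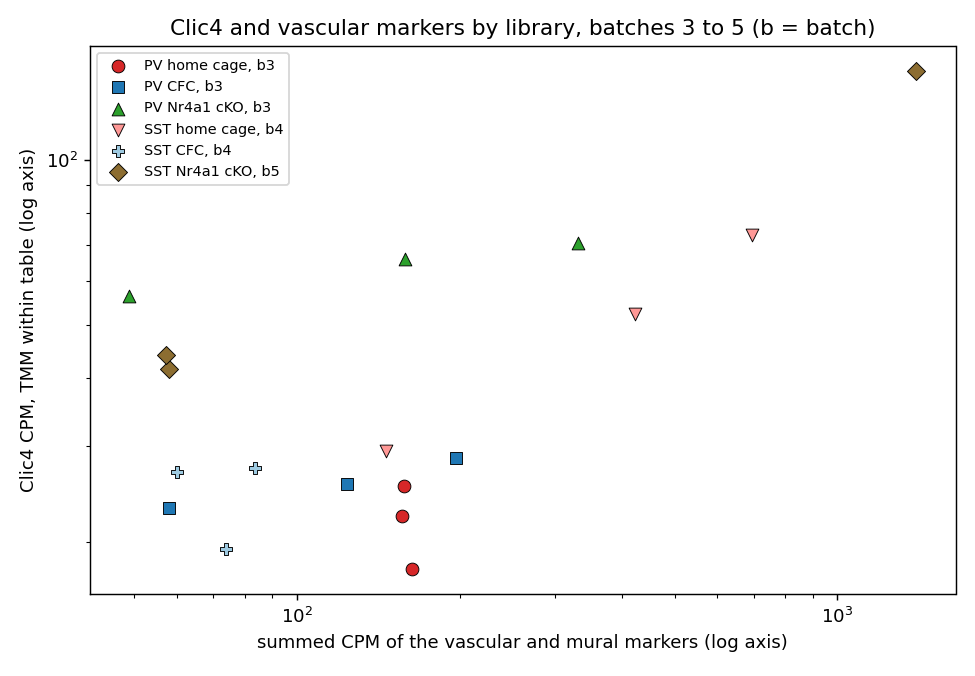
Clic4 level (vertical, CPM, TMM within table) against the summed CPM of 14 vascular and mural markers (horizontal), both on log axes, for each library of batches 3 to 5. The 3 SST libraries with the highest sums (422.4 to 1399 CPM) have the highest SST levels of Clic4, whereas the PV cKO libraries hold 56.3 to 70.6 CPM at sums from 49 to 331.8 CPM.

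The patterns of the 4 genes over the 9 libraries of batch 3 fell into a trio and Clic4. Across these libraries, on the log2(CPM + 1) scale, Pearson's r was 0.97 between Fut10 and Simc1, 0.94 between Parp1 and Simc1 and 0.88 between Fut10 and Parp1, and 0.56, 0.53 and 0.38 between Clic4 and Fut10, Simc1 and Parp1. These values describe 3 groups of 3 libraries that also chose the genes. The genes most like Fut10 were Simc1 (r = 0.969), Rgl1 (0.962) and Stx17 (0.954), and those most like Simc1 were Fut10, Fam98a (0.966) and Ptpdc1 (0.962). All of these had home cage below all 15 other PV libraries, as had 42.5% of the 494 genes with home cage below all CFC and cKO libraries. Likeness over batch 3 favours the part of this place that lies within batch 3, so nothing is read from it. Those most like Parp1 were Xrcc1 (0.975), Ano4 (0.973) and Cd2bp2 (0.971). Xrcc1, the scaffold of single-strand break repair, was at 29.5 CPM in home cage, 44.5 CPM after CFC and 41.6 CPM in cKO libraries. Unlike Parp1, it was not lowest in home cage once other batches were included, since on the shared PV scale it was at 32.2 CPM in home cage and 6.19 CPM in saline of batch 1. Those most like Clic4 were Psat1 (0.955), Phgdh (0.95) and Sypl (0.948). Psat1 and Phgdh, which encode enzymes of serine synthesis, went from 24.8 and 4.29 CPM in home cage to 99.2 and 34.2 CPM in cKO libraries, with 29.4 and 5.28 CPM after CFC.

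The other genes of the fucosylation, poly-ADP-ribosylation and SMC5/6 lists had medians near that of all genes in batch 3. The other CLIC genes, 3 tested, were higher in cKO libraries, but all had mean levels below 5 CPM. All lists were drawn up with earlier results of these data known. Of 15 fucosylation genes tested, 7 were higher and 8 lower than home cage both after CFC and in cKO libraries (medians -0.00 and -0.04, beside 0.02 and 0.04 over all genes). Fut8, the core fucosyltransferase, was 0.51 ± 0.25 higher in each, and Fpgt, of the fucose salvage route, 0.58 ± 0.30 and 0.76 ± 0.30. Among the protein O-fucosyltransferases, Pofut1 was lower after CFC (-0.54 ± 0.40) and Pofut2 was 0.50 ± 0.17 higher in cKO libraries. Of 25 genes of poly-ADP-ribosylation and single-strand break repair, 13 were higher after CFC and 16 in cKO libraries (medians 0.11 and 0.07). Lig3, the DNA ligase that partners Xrcc1, was at 4.91 ± 1.83 CPM (SD) in home cage, 9.86 ± 1.13 CPM after CFC and 8.60 ± 3.01 CPM in cKO libraries. Parg, which removes poly(ADP-ribose), was 0.60 ± 0.19 (SE) higher after CFC.

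Of 26 genes of the SMC5/6 complex and the SUMO pathway, 17 were higher after CFC and 15 in cKO libraries (medians 0.13 and 0.05). The SUMO protease Senp5 was 0.76 ± 0.24 and 0.60 ± 0.24 higher, whereas Nsmce1, a subunit of the complex, was 0.77 lower after CFC (log2 -0.77 ± 0.25). Of the 3 other CLIC genes tested, 1 was higher after CFC and 3 in cKO libraries (medians -0.27 and 1.26, beside 0.02 and 0.04 over all genes). In CFC minus cKO, 0 of the 3 were higher (median -1.47). Over the wider list of 10 CLIC and actin-cortex genes, 8 were higher in cKO libraries (median 0.32). The 3 CLIC genes in it, at log2 0.41 to 1.87, had mean levels below 5 CPM. Among genes at 5 CPM or more, the largest difference was that of Msn, which encodes moesin (1.23 ± 0.50), whereas Ywhae was lower (-0.30 ± 0.13). Msn is also abundant in endothelium and microglia.

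In libraries the choice did not use, members of these lists passed most often in the contrast of Cre lines, at shares near the 53.1% of all genes. SST minus PV saline called 4 higher and 4 lower of 13 fucosylation genes (edgeR, adjusted p under 0.05). Fut8 was higher in SST libraries by 1.26 ± 0.19 (adjusted p = 0.000185, edgeR), and Tsta3 (GDP-fucose synthesis) lower (-2.19 ± 0.36, adjusted p = 0.00037). It called 5 higher and 5 lower of 17 poly-ADP-ribosylation genes and 6 higher and 6 lower of 22 SMC5/6 and SUMO genes, among them Sumo3 (-1.85 ± 0.18, adjusted p = 7.44e-06). Of 8 CLIC and related genes it called 2 higher and 3 lower, with Ezr, which encodes ezrin, lower by -0.83 ± 0.23 (adjusted p = 0.00986). PV saline of batch 2 minus batch 1 called 1 of 13 fucosylation genes, 3 of 17 poly-ADP-ribosylation genes, 3 of 20 SMC5/6 and SUMO genes and 2 of 8 CLIC and related genes, beside 17.8% of all genes. In SST cKO minus home cage, where batch and genotype cannot be told apart, 8.13% of all genes passed in edgeR. Of 25 SMC5/6 and SUMO genes 1 passed, the subunit Nsmce2 (0.70 ± 0.12, adjusted p = 0.00834, edgeR). Of 10 CLIC and related genes 1 passed, Ptp4a3 (-0.50 ± 0.13, adjusted p = 0.0376, edgeR). Nothing is read from these single genes. Of 14 fucosylation and 26 poly-ADP-ribosylation genes 0 passed in edgeR. At an unadjusted p under 0.05 there were 2 and 6 of them, beside 3351 of 15417 over all genes. DESeq2 called 1 and 2 of them, beside 2124 over all genes. PV PTZ, SST PTZ and SST CFC called 0 genes of any of these lists in edgeR, beside 0.0294%, 0.144% and 0.0411% of all genes. At an unadjusted p under 0.05 there were 0 to 4 per list, and DESeq2 called at most 1 per list. The 4 were among 10 CLIC and related genes in SST CFC, beside 814 of 14614 over all genes. Of these 10 genes, 8 were lower after CFC and 2 higher (median log2 -0.32), and DESeq2 called 1.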

How the data were processed

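RNA sequencing counts of ribosome-bound mRNA in 34 libraries were analysed. The genes and lists were chosen with earlier results of these data known. The submitters' processing notes list DESeq2, HTSeq 0.11.0, STAR 2.5.2a and cutadapt 1.18, and the builds mm10 and GRCm39; which build or step belongs to which batch, and strandedness, are not given in these sources. For batch 1 the authors deposited estimated counts per gene symbol, which they had computed from the reads; 11.3% were not whole, and all were rounded before tests. The other 4 deposited tables hold whole-number counts of reads per gene, made by the authors without scaling. The tables list 24371 genes (batch 1), 11808 (batch 2) and 53465 (batches 3 to 5). Among 37 pairs of replicates 0 were identical, and the lowest chi-square per degree of freedom was 5.89, so each library counted once. Intervals of difference are at 95%, and depth ranged from 4933110 to 27282912 counts per library.

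Groups came from the sample titles. Tests used edgeR 4.0.16 (R 4.3.3), with its two-sided quasi-likelihood F test (TMM, filterByExpr, robust dispersion), with Benjamini-Hochberg adjustment over all genes tested at 0.05; the SE is the absolute log2 difference divided by the square root of F. The spread was estimated over every library of the fitted table. Comparisons across tables used the genes common to them. Contrasts that chose the genes carry no p. Levels are CPM after TMM scaling within a table unless stated; marker sums use CPM of the library total. Named genes were the 4 genes, Nr4a1, Pvalb and Sst as checks, up to 3 called genes per list by largest change (in the PV CFC and cKO contrasts up to 3 by largest difference, with mean levels of 5 CPM or more), and the 3 genes most correlated with each of the 4 at that level; not every gene the rule allows is printed, and 4833439L19Rik was added after its overlap with Simc1 was seen. Alternatives were DESeq2 1.42.0, DESeq2 size factors or library totals in edgeR, no filter, the compared groups alone, a replicate block and each library left out. The edgeR script was tested on simulated data.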

Additional observations from a re-analysis of the deposited data

How the results depend on the processing

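Of 777 alternative values for differences of the 4 genes, 731 kept the direction and stayed close to the main value or on its side of the threshold. Another 30, in 14 of 66 differences, had the other sign, 22 of them with 1 library left out; none of these differences had passed a test. The cause of a move was not tested. Genes called for PV CFC minus home cage (0) became 1 with library totals, 1032 with no filter, 745 with DESeq2 and 2 with the compared groups alone, and 0 to 1481 with 1 library left out. For PV cKO minus home cage (21) they became 1072 with no filter, 669 with DESeq2 and 10 with the compared groups alone (7 to 1224 with 1 library left out), and for PV CFC minus cKO (20) 208 with no filter and 87 with DESeq2 (4 to 15 with 1 library left out). DESeq2 called 215 for PV PTZ (main 4; 0 to 14 with 1 library left out), 38 for SST PTZ (main 17; the compared groups alone also 38), 102 for SST CFC (main 6; no filter 11; 1 to 37), 2124 for SST cKO (main 1253; 426 to 1279) and 1 for the difference of PTZ responses (main 0; 0 to 1). PV saline of batch 2 minus batch 1 (2031) gave 851 with the compared groups alone (940 to 2514 with 1 library left out).

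Replicate numbers were shared between groups but did not pair the libraries: same-numbered libraries correlated from -0.318 to 0.241 over the comparisons with 3 pairs, at most 2 of 6 libraries correlating best with their own number. With the replicate block, genes called were 2 for PV CFC minus home cage, 2 for PV PTZ, 8 for SST PTZ, 2 for SST CFC and 1 for the difference of PTZ responses, and no call for the 4 genes changed.

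With 1 library left out, the values that moved or changed sign by the most ranged as follows. SST CFC minus SST home cage gave -0.27 to 0.75 for Fut10 and -0.13 to 0.90 for Simc1, and SST PTZ minus saline -0.21 to 0.17 for Fut10. PV saline batch 2 minus batch 1 gave -0.20 to 0.25 for Simc1 and -0.010 to 0.73 for Parp1. SST saline minus PV saline gave -0.97 to -0.20 for Parp1, 0.024 to 1.70 for Clic4 and -1.65 to -0.85 for Fut10. SST Nr4a1 cKO minus SST home cage gave 0.49 to 1.56 for Simc1 and -0.29 to 0.85 for Clic4. PV saline batch 2 minus batch 1 gave -1.73 to -0.021 for Clic4. PV home cage minus PV saline batch 2 gave -0.73 to 0.97 for Clic4 and -2.01 to -1.27 for Parp1. PV CFC minus PV saline batch 2 gave -0.54 to 1.16 for Clic4, -0.26 to 0.52 for Fut10 and -0.88 to -0.13 for Parp1. PV Nr4a1 cKO minus PV saline batch 2 gave 0.79 to 2.49 for Clic4, -0.46 to 0.32 for Fut10 and -1.24 to -0.79 for Simc1. Parp1 in SST cKO minus home cage passed with library totals (0.29). Added after seeing the data: genes with home cage below all other PV libraries numbered 210, and 324 to 795 without 1 home cage library, a number that could not fall. Of the 4 genes, 3 were among them with library totals and with TMM over all libraries, and leaving out libraries could not remove them. Library totals moved the median of all genes by over 0.1 in PV cKO minus home cage, to 0.15. Where a group keeps 1 library, that library is assumed to vary like the others. Fut10, with 12 to 40 counts per home cage library, is limited most by depth.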
